A study of Mus musculus with 35 samples.

Results

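The 42 genes described here encode the enzymes, regulators and receptors of sphingolipid and ceramide metabolism, out of 54354 genes in the count table. They were chosen by symbol as a functional set, with earlier results of these data known, and all 42 symbols were found in the table once each. RNA of mouse colon tumour organoids was measured by sequencing in 35 libraries. Organoids are epithelial cultures that organise themselves in a gel. All 5 groups carry the genotype labelled AKP and were grown in vitro, and the study asked how fatty acid supply and ceramide levels change their transcripts. One experiment compared 15 libraries treated with carmofur, an inhibitor of ceramidases, with 12 control libraries. The other compared palmitic acid, a saturated fatty acid, in 3 libraries of batch 1 and 2 libraries of batch 2, with 3 control libraries that serve both batches. The labels give no dose, no duration and no number of organoid lines, and leave unstated whether each library came from its own culture. The p-values therefore reflect only how these libraries vary, part of which may be technical.

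Sphingolipids start with serine palmitoyltransferase, which joins serine to palmitoyl-CoA, so that palmitic acid feeds the first step directly. The product is reduced, given an acyl chain by a ceramide synthase and desaturated to ceramide, which is then built into sphingomyelin or glucosylceramide, or cut by a ceramidase to sphingosine. Sphingosine can be phosphorylated to sphingosine 1-phosphate, a ligand of cell surface receptors that is cleared by a lyase and by phosphatases. Sphingomyelin and glycosphingolipids are abundant in the apical membrane of intestinal epithelial cells.

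Total counts were 3127275 to 10609563 with carmofur, 1663750 to 8124707 in carmofur controls, 2138905 to 2845017 in palmitic acid batch 1, 2406582 to 3742289 in batch 2 and 762888 to 2511723 in palmitic acid controls. The shallowest library was palmitic acid control 1. In the order in which the samples are listed, the carmofur libraries alternate with controls and form 3 blocks, which the labels do not call batches: carmofur 1 to 6 with controls 1 to 3, carmofur 7 to 12 with controls 4 to 6, and carmofur 13 to 15 with controls 7 to 12. Carmofur replicates 8 and 10 and carmofur control 1 were the least like the rest of their groups. Their median correlations to the other libraries of the group were 0.795, 0.797 and 0.795 over 11004 genes, where the others had 0.821 to 0.86. They were also the shallowest of their groups, at 3127275, 3900194 and 1663750 total counts. The part of depth in these correlations was not tested. Of 9 epithelial markers, all were detected in both carmofur groups, and their summed level, in counts scaled by TMM to library size (CPM), was 1771 to 2663 CPM with carmofur and 1600 to 2489 CPM in its controls. It was 1174 to 1272 CPM in palmitic acid batch 1, 1156 to 1184 CPM in batch 2 and 1324 to 1368 CPM in their controls. Of 8 mesenchymal markers the sum never passed 6.84 CPM.

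Ormdl2, Asah1, Sptssa and Degs2 stood far above all other members. Levels are compared between genes as counts per kilobase of merged exons, scaled to a common sum per library, and named a level per length. In the untreated libraries Ormdl2, a brake on serine palmitoyltransferase, had a level per length of 321 ± 54.3 in carmofur controls (SD, n = 12) and 283 ± 91.1 in palmitic acid controls (SD, n = 3). Sptssa, the small activating subunit of the same transferase, had 204 ± 27.5 and 207 ± 7.08 in these 2 control groups, and Degs2, a dihydroceramide desaturase and hydroxylase of barrier epithelia, had 161 ± 24.5 and 192 ± 10.3. Asah1, the lysosomal acid ceramidase, had 212 ± 37 and 129 ± 4.26. In carmofur controls the ranges of neighbours in the order Ormdl2, Asah1, Sptssa, Degs2 overlapped. The next gene, Ormdl1, was at 34.6 ± 12.3 in carmofur controls and 21.1 ± 3.87 in palmitic acid controls, and its range reached that of Degs2 in neither experiment. Below Ormdl1 the members formed a continuous run in which neighbouring genes overlapped, apart from Sgpp2 and Cers6 in the palmitic acid controls. Ormdl2, Degs2, Cers1, Cers2, Cers4, Acer1, Smpd2, Smpd3, Sgms1, Cerk, Gba2, Galc, Sphk1, Sphk2, Sgpp2, S1pr3 and S1pr5 overlap annotated genes on the opposite strand, such as Dnajc14 for Ormdl2 and Evl for Degs2. The sources used here do not say that counting used strand, so the reads of these opposite-strand pairs may not have been separated. Ormdl1, Cers1 and Sptssa overlap Gm28778, Gdf1 and Mir1892 on their own strand, where strand could not separate the reads in any case.

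Within families 1 gene usually held most of the level. Asah1 made up 90.7% ± 3.08 of the summed level per length of the 6 ceramidases in carmofur controls and 85.4% ± 0.842 in palmitic acid controls. Degs2 made up 98.4% ± 1.29 and 98.8% ± 0.588 of the 2 desaturases, and Ormdl2 89.3% ± 4.49 and 92.3% ± 2.01 of the 3 ORMDL genes. Among ceramide synthases, which differ in the acyl chains they add, Cers2 held 53.7% ± 7.57 and 45.6% ± 9.44, and Cers6, Cers3 and Cers5 held most of the remainder. The 2 sphingomyelin synthases were nearer to even. Sgms1 held 56.8% ± 19.5 of their level in carmofur controls and 52.3% ± 29 in palmitic acid controls, and Sgms2 held the rest.

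Several members had too few counts to test. Of the 42, 33 passed the filter on low counts in the carmofur fit and 29 in the palmitic acid fit. S1pr5, a sphingosine 1-phosphate receptor, had 0 counts in all libraries, which leaves room for up to 0.292 to 3.87 CPM in a library at the limit of 3 counts. Cers1 had 2 counts in all, both in 1 carmofur control. S1pr1 had 30 counts, 29 of them in carmofur replicate 11, and Sptlc3, an alternative catalytic subunit of serine palmitoyltransferase, had 24 and 32 counts in carmofur replicates 4 and 7 and 0 in the other libraries. S1pr3 had 14 counts with carmofur, 13 of them in a single library, and 9 in palmitic acid batch 2, against 0 in the controls of both experiments. Galc, a lysosomal galactosylceramidase, had 7 counts with carmofur and 57 in carmofur controls, of which 40 were in control 6. Cers4 (63 counts with carmofur, 77 in carmofur controls) and Sphk1, a sphingosine kinase (174 and 85), were also left untested in both of these fits. So was Asah2, the neutral ceramidase (143 and 189). Cers4, Sphk1 and Asah2 did enter the fits by block and of all libraries given below, and Galc and Sptlc3 the fit of all libraries. Ormdl3, Smpd1, Smpdl3b and S1pr2 were tested with carmofur but not with palmitic acid.

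With carmofur, 3 of the 33 members tested rose and 0 fell. They were Cers5, a ceramide synthase that makes ceramides with a palmitoyl chain, Sptssa, and Sgms1, the Golgi sphingomyelin synthase that uses ceramide. Over all 9988 genes tested, 9.01% passed the same threshold, 5.2% higher and 3.81% lower. The threshold was an adjusted p under 0.05, where every adjusted p given is the Benjamini-Hochberg value from the quasi-likelihood test of edgeR. The members' count was close to the share of all genes. A further 2 members had an unadjusted p under 0.05, Cers6 and Sgms2, which makes 5 of 33, where 19.0% of all genes had such a p. The median log2 fold change of the 33 was 0.15, against 0.00 over all genes tested. For 0 of 33 members did the 2 groups not overlap at all, where 0.761% of all genes did not. Krt20, a keratin of differentiated colonocytes and 1 of the 9 epithelial markers, moved with carmofur: it ran from 13.6 to 53.1 CPM with carmofur (median 30.1) and from 0 to 11.5 CPM in carmofur controls (median 3.35), without overlap and with a higher mean in each block. The other epithelial markers overlapped between the groups. Their mean CPM was lower with carmofur than in its controls for Epcam (309 against 328), Cdh1 (116 against 137) and Cldn7 (47.3 against 53.7). It was higher for Krt8 (358 against 306), Krt19 (881 against 706), Vil1 (94.8 against 88.5), Cdx2 (8.31 against 7.01) and Krt18 (318 against 316). The part of Krt20 in the members' values was not tested. In bulk RNA, fewer cells of a type and less RNA per cell cannot be told apart.

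Cers5 had the largest log2 fold change of these 3 genes. Its level ran from 8.21 to 33.4 CPM with carmofur (median 18) and from 0.612 to 18.3 CPM in carmofur controls (median 5.25), and the means were 19.6 ± 8.26 and 7.02 ± 5.54 CPM (SD, n = 15 and 12). All 15 treated libraries lay above the control median, though the ranges overlapped. The log2 fold change was 1.48 ± 0.42 (SE), 2.78-fold, with an adjusted p of 0.0166. Cers5 (ENSMUSG00000023021) lies on mm10 chromosome 15, 99734881 to 99772885, minus strand.

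Sptssa ran from 182 to 353 CPM with carmofur (median 214) and from 143 to 218 CPM in carmofur controls (median 168). All 15 treated libraries again lay above the control median and the ranges overlapped. On the log2 scale the change was 0.39 ± 0.11, 1.31-fold, with an adjusted p of 0.0129. The Sptssa gene (ENSMUSG00000044408, chromosome 12, 54645392 to 54656573, minus strand) contains the microRNA gene Mir1892 on the same strand.

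Sgms1 ran from 28.1 to 81 CPM with carmofur (median 54.4) and from 12.6 to 54.4 CPM in carmofur controls (median 31.7). Of the 15 treated libraries 14 lay above the control median, and the ranges overlapped. Sgms1 rose by a log2 fold change of 0.71 ± 0.22, 1.64-fold, with an adjusted p of 0.0289. Sgms1 (ENSMUSG00000040451) lies on chromosome 19, 32122727 to 32389714, minus strand, where 2700046G09Rik is annotated on the opposite strand. The same limit of strand holds for this pair. Without the 3 libraries least like their groups, the log2 fold changes were 1.42 for Cers5 (adjusted p = 0.0339), 0.32 for Sptssa (0.0368) and 0.80 for Sgms1 (0.0176). With counts summed by sets of 3 consecutive libraries, 0 members passed, at an adjusted p of 0.150 for Cers5, 0.177 for Sptssa and 0.0652 for Sgms1. Leaving out 1 set ended the call of Cers5 for carmofur controls 1 to 3 or 10 to 12 or carmofur 4 to 6 (adjusted p up to 0.0677), that of Sptssa for controls 4 to 6 or carmofur 7 to 9 (up to 0.0868), and that of Sgms1 for 6 of the 9 sets (up to 0.122). Sgms1 also lost it without carmofur control 3, 4, 6, 11 or 12 or carmofur 4 or 11, each left out alone, with adjusted p from 0.0503 to 0.0616.

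The sequences upstream of Sptssa and Sgms1 are shown because both genes rose with carmofur. They are the 250 bases before a start given by RefSeq on GRCm38.p6, on the minus strand, chr12:54656573-54656822 for Sptssa and chr19:32388513-32388762 for the farthest upstream of 4 starts of Sgms1. Capitals mark GGGCGG, the core of the GC box, and CCAAT, in either orientation, so that CCGCCC is GGGCGG on the other strand.
Sptssa: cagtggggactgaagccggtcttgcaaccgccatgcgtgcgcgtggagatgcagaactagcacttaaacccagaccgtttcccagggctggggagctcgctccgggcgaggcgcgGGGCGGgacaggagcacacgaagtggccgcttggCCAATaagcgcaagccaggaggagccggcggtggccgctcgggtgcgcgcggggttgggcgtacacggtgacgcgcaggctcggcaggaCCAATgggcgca
Sgms1: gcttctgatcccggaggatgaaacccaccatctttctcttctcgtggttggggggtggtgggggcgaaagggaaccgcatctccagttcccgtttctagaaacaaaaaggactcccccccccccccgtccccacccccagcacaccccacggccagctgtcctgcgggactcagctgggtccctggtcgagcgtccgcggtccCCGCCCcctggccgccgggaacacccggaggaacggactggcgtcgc
The Sptssa window held 1 GGGCGG and 2 CCAAT matches at 68.8% G and C, and the Sgms1 window 1 GGGCGG at 67.2%. The window of Cers5, chr15:99772516-99772765, held 2 GGGCGG at 65.6%, and 177 of its bases lie in an annotated exon, so its letters are not shown. The Sgms1 window lies inside the longer gene that GENCODE annotates, in none of its exons. The median over 27025 genes was 52% G and C. Of 39 members with a RefSeq window, 25 held GGGCGG and 11 CCAAT, where 33.0% and 34.5% of the 27025 genes did. The 27025 genes were taken whatever their level in these libraries and were not matched to the members for G and C. These differences were not tested. On both strands, TATAAA was found in 1 member (13% of genes), CACGTG in 5 (6.04%) and TGACGTCA in 2 (1.60%). No matches overlapped in the printed windows, and a match is a description of letters, not of a bound site.

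Among ceramide synthases the change of Cers5 stood beside values in the other direction for Cers6, which makes ceramides of similar chain length. Cers6 ran from 21.2 to 63.7 CPM with carmofur (median 36.6) and from 26.2 to 99.6 CPM in carmofur controls (median 47.9). Only 4 of 15 treated libraries lay above the control median, and the ranges overlapped widely. Its log2 fold change was -0.49 ± 0.21 with an adjusted p of 0.15, which became 0.0402 without carmofur 7 to 9 and 0.0433 without carmofur control 10 to 12. By share of the summed level per length of the ceramide synthases, Cers5 held 20.1% ± 8.91 with carmofur and 7.45% ± 5.7 in carmofur controls. Cers6 held 15.4% ± 5.1 with carmofur and 22.8% ± 7.64 in carmofur controls, and Cers2 held 44.3% ± 8.28 and 53.7% ± 7.57. These shares are a description and were not tested. Cers2 (log2 fold change -0.17) and Cers3 (0.47) did not pass.

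**Figure D1:**
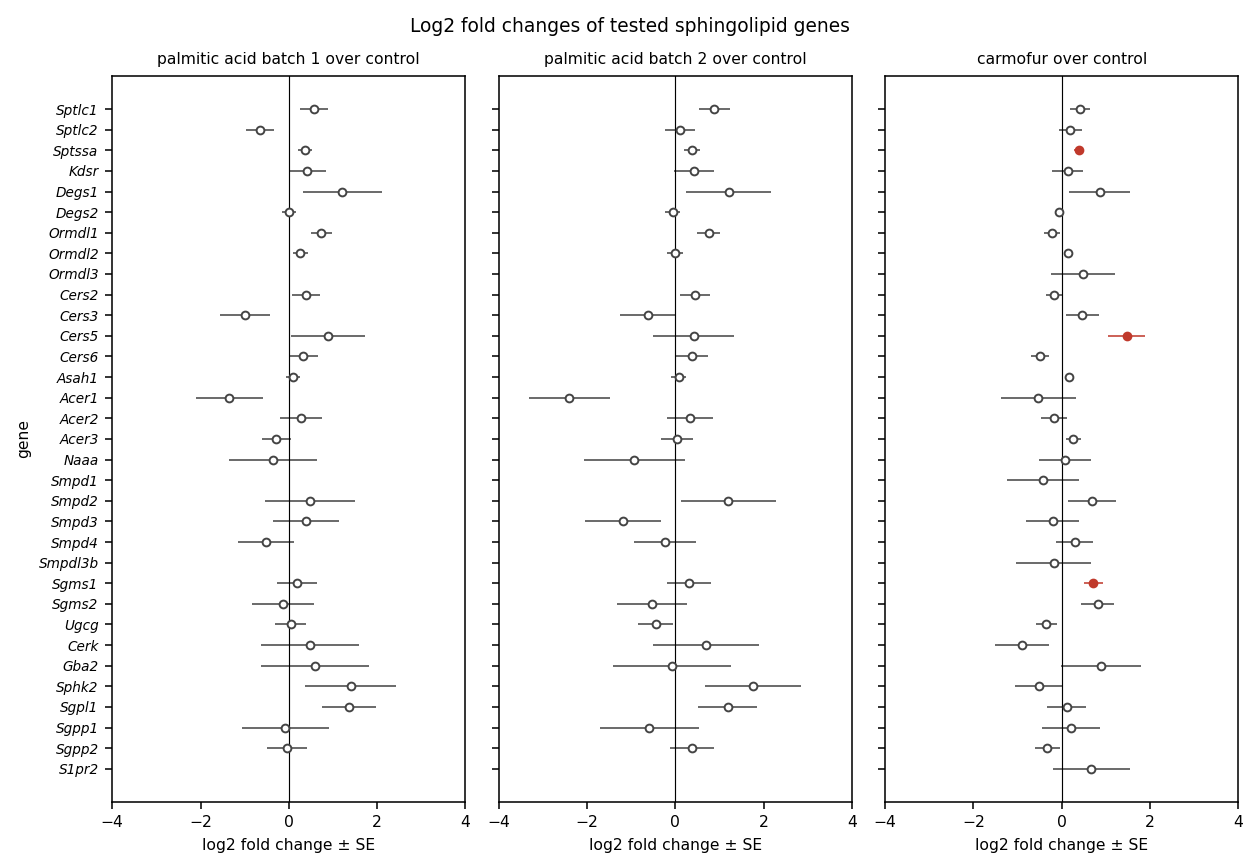
Log2 fold change with its standard error for the tested members in palmitic acid batch 1, palmitic acid batch 2 and carmofur, each over its control, with filled red points for an adjusted p under 0.05. Sptssa, Cers5 and Sgms1 are the filled points, all with carmofur, and most bars with palmitic acid cross 0 or lie close to it.

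The transcripts of the ceramidases did not pass the threshold with carmofur: 0 of 5 tested by edgeR, by DESeq2 or by limma-voom. In edgeR 0 had an unadjusted p under 0.05. Which of these enzymes carmofur inhibits was not measured. Asah1 ran from 328 to 543 CPM with carmofur (median 445) and from 275 to 520.1 CPM in carmofur controls (median 403). Its treated libraries lay above the control median in 12 of 15 cases, within a wide overlap. This gave a log2 fold change of 0.16 ± 0.09 (adjusted p = 0.356).

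Acer3, an alkaline ceramidase, ran from 39.5 to 87.1 CPM with carmofur (median 62.6) and from 32.4 to 78 CPM in carmofur controls (median 56.4), and its log2 fold change was 0.27 ± 0.17 (adjusted p = 0.444). Acer2, the Golgi alkaline ceramidase, ran from 9.8 to 40.2 CPM with carmofur (median 20.7) and from 13.3 to 47 CPM in carmofur controls (median 20.8). The log2 difference came to -0.18 ± 0.29 (adjusted p = 0.84). For both genes the 2 groups covered nearly the same range. Acer1, an alkaline ceramidase known best from the epidermis, ran from 0 to 13.3 CPM with carmofur (median 0.534) and from 0 to 17.3 CPM in carmofur controls (median 6.14), with a log2 fold change of -0.53 ± 0.85 (adjusted p = 0.838). Each group of Acer1 split into libraries near 0 and libraries of several CPM, with 3 counts or fewer in 8 of 15 carmofur and 5 of 12 control libraries. Naaa, an acid amidase with weak ceramidase activity, ran from 0.324 to 32.6 CPM with carmofur (median 7.59) and from 0.255 to 25.1 CPM in carmofur controls (median 6.55). For Naaa the log2 fold change of 0.09 ± 0.59 (adjusted p = 0.973) had no stable sign. Asah2 ran from 0 to 10.4 CPM with carmofur (median 0) and from 0 to 19.6 CPM in carmofur controls (median 0.302). It had 3 counts or fewer in 11 of 15 and 7 of 12 libraries and was not tested in the carmofur fit without blocks.

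**Figure D2:**
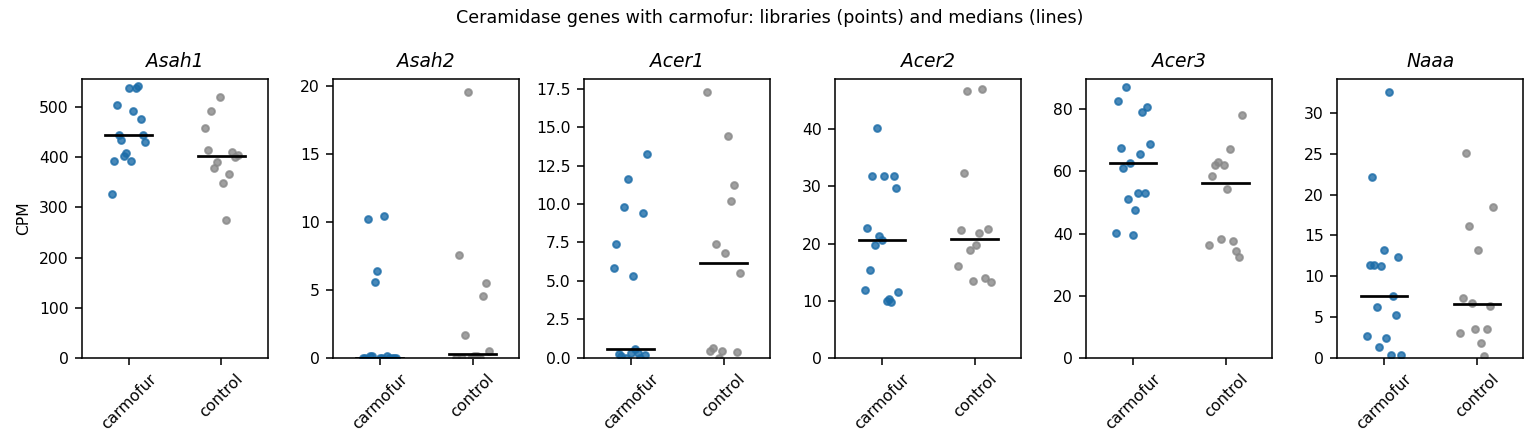
CPM of the 6 ceramidase genes in 15 carmofur and 12 carmofur control libraries, with 1 point per library and a line at the median. The 2 groups overlap for every gene, and Asah1 lies above 270 CPM in all libraries.

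The other steps of synthesis did not pass with carmofur. Sptlc1, the shared subunit of serine palmitoyltransferase, ran from 31.7 to 91 CPM with carmofur (median 51.7) and from 13.7 to 85 CPM in carmofur controls (median 40.1), with a log2 fold change of 0.42 ± 0.23 (adjusted p = 0.32). Its treated libraries lay above the control median in 14 of 15 cases, while the ranges overlapped. Sptlc2, the catalytic subunit, ran from 18.3 to 88.9 CPM with carmofur (median 47.3) and from 16.2 to 102 CPM in carmofur controls (median 34.5), with a log2 fold change of 0.20 ± 0.26 (adjusted p = 0.784). Kdsr, the ketoreductase after it, had a log2 fold change of 0.13, Degs1, the general desaturase, at 0.87 ± 0.69, and Degs2 at -0.05. The ORMDL genes had log2 fold changes of -0.21 for Ormdl1, 0.15 for Ormdl2 and 0.48 for Ormdl3, with adjusted p from 0.51 to 0.822.

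Of the genes that use ceramide, Sgms2, the sphingomyelin synthase of the plasma membrane, stood at a log2 fold change of 0.81 ± 0.37 (adjusted p = 0.212). It ran from 6.6 to 59.6 CPM with carmofur (median 20.1) and from 1.52 to 38.9 CPM in carmofur controls (median 14). The overlap was wide, and 12 of 15 treated libraries lay above the control median. Ugcg, which makes glucosylceramide, had a log2 fold change of -0.35 and Cerk, the ceramide kinase, of -0.91 ± 0.61, with 4 and 1 of 15 treated libraries above the control median. Sphingomyelinases release ceramide from sphingomyelin. The 5 genes grouped with them, among them the sphingomyelinase-like Smpdl3b, had log2 fold changes from -0.43 for Smpd1 to 0.69 for Smpd2. Smpd3 was at -0.20, Smpd4 at 0.30 and Smpdl3b at -0.18, and 0 of 5 passed or had an unadjusted p under 0.05. Gba2, a glucosylceramidase outside the lysosome, had a log2 fold change of 0.90 ± 0.91. For sphingosine 1-phosphate, by log2 fold change the kinase Sphk2 was at -0.51, the lyase Sgpl1 at 0.11, the phosphatases Sgpp1 and Sgpp2 at 0.21 and -0.33, and the receptor S1pr2 at 0.68 ± 0.87, with adjusted p from 0.633 to 0.95.

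Within each of the 3 blocks the carmofur effect was fitted separately, in 1 model, and the difference between blocks was tested as well. In block 1, 1 of 36 members tested rose with carmofur, Cers5, where 1.1% of 13114 genes passed, 0.503% higher. Its levels were 11.6, 16.5, 32.2, 22.5, 33.4 and 23.1 CPM with carmofur and 4.77, 0.612 and 1.29 CPM in the controls. Every treated library lay above every control, as in 5 members in either direction and in 6.75% of all genes, and the 3 controls held 8, 3 and 6 counts. The log2 fold change was 3.5 ± 0.86 (adjusted p = 0.0314), and leaving out carmofur control 2 or 3, or carmofur 3, 4 or 5, ended this call. Without carmofur control 1 the log2 fold change was 4.59, and over all libraries left out in turn it ran from 3.02 to 4.59. The other 4 were Sptlc1 and Degs1, higher in all 6 treated libraries, and Cers6 and Sphk2, lower in all 6. Degs1 had 251 counts over the 6 treated libraries and 2 over the 3 controls.

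In block 2, 2 of 36 members rose with carmofur, Sgms2 and Sptssa, where 5.75% of all genes passed, 3.12% higher and 2.63% lower. Sgms2 was at 46.6, 9.38, 42.8, 40.6, 59.6 and 54.3 CPM with carmofur and at 7.11, 6.72 and 1.52 CPM in the controls. Carmofur replicate 8 was the low treated library, and even it lay above all 3 controls. The log2 fold change was 3.03 ± 0.65 (adjusted p = 0.00224), and it passed in all 34 alternative fits, with 3.33 (adjusted p = 0.000609) without the 3 libraries least like their groups. Sptssa was at 238, 353, 295, 194, 187 and 244 CPM with carmofur and at 143, 164 and 179 CPM in the controls. The groups did not overlap, as for 3 members in all and 9.08% of all genes, the third being Sphk1. For Sptssa the log2 fold change was 0.60 ± 0.19 (adjusted p = 0.0462), and the call was lost in 12 alternative fits, among them the fit without those 3 libraries (0.0589). Leaving out carmofur 2, 6, 7, 8 or 9 or carmofur control 4, 5, 6 or 11 alone also ended it, with adjusted p from 0.0501 to 0.199.

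In block 3, which has 3 treated and 6 control libraries, 0 of 36 members passed by edgeR, where 4.62% of all genes did, 2.81% higher and 1.81% lower, and 6 had an unadjusted p under 0.05, where 16.4% of all genes did. DESeq2 called 0 as well, and limma-voom called Ormdl2 and Sptlc1, as did edgeR without carmofur control 9. Ormdl2 had the lowest p, with a log2 fold change of 0.46 ± 0.16 (adjusted p = 0.108). Degs1 and Asah1 were higher in every treated library than in every control, where 10.8% of all genes did not overlap. Sgms2, with 18.9, 20.1 and 43.5 CPM with carmofur and 12.5 to 38.9 CPM in the controls (median 24.7), stood at a log2 fold change of 0.14 ± 0.54 there. Its untreated level averaged 5.12 ± 3.12 CPM in block 2 and 24.5 ± 9.03 CPM in block 3 (SD, n = 3 and 6).

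The test of whether the carmofur effect differs between blocks called 0 of 36 members by edgeR, by DESeq2 and by limma-voom, where 1.08% of all genes passed by edgeR. In that test 6 members had an unadjusted p under 0.05, where 12.3% of all genes did, and the lowest adjusted p were 0.121 for Sgms2, 0.189 for Sptlc2 and 0.297 for Cers5. Among 8 immune markers, Cd68, a lysosomal glycoprotein of macrophages, made up nearly the whole sum, which was 7.36 to 166 CPM with carmofur and 26.8 to 93.2 CPM in carmofur controls. In block 2 Cd68 averaged 102 ± 39.6 CPM with carmofur and 63.1 ± 29.1 CPM in the controls. Its mean was lower with carmofur in block 1 (20 ± 11.5 against 34.8 ± 10.6 CPM) and in block 3 (41 ± 38.3 against 50 ± 13 CPM). Adgre1, Csf1r and Cd3e had 0 counts in all 35 libraries. The part of Cd68 in the result of Sgms2 was not tested.

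**Figure D3:**
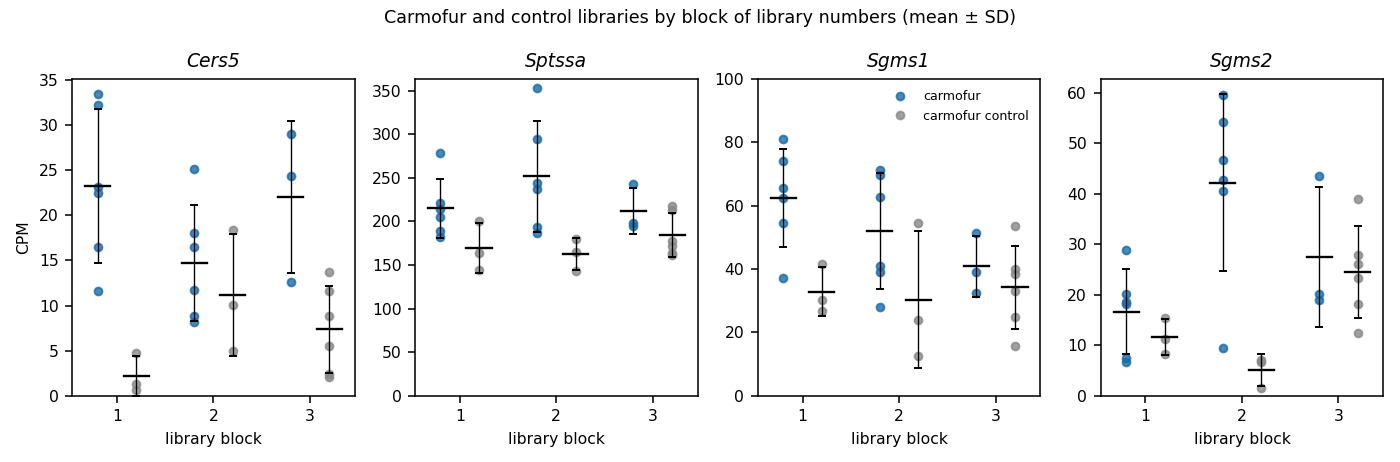
CPM of Cers5, Sptssa, Sgms1 and Sgms2 by block of library numbers, with carmofur left of its control in each block, 1 point per library, and the mean with its SD. Cers5 in block 1 and Sgms2 and Sptssa in block 2 show treated libraries that lie above all controls of the same block.

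With palmitic acid no member passed in either batch. In batch 1, 0 of 29 members tested passed by edgeR, DESeq2 or limma-voom, where 0.549% of 9841 genes passed by edgeR, and 4 members had an unadjusted p under 0.05. In batch 2, 0 of 29 passed by any of the 3 tools, where 0.325% of all genes did, and again 4 had an unadjusted p under 0.05. These were Ormdl1, Sptssa, Sptlc2 and Sgpl1 in batch 1 and Ormdl1, Sptssa, Sptlc1 and Acer1 in batch 2. Of all genes tested, 7.69% and 7.10% had such a p. The median log2 fold change of the 29 members was 0.27 in batch 1 and 0.31 in batch 2, against 0.02 and -0.01 over all genes. Both batches were set against the same 3 controls, so their values are given side by side and not as repeats of each other. The summed epithelial markers lay below all 3 controls in all 5 treated libraries, and their part in these values was not tested.

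Ormdl1, a regulator that restrains serine palmitoyltransferase, had the lowest p in both batches. It was at 96.9, 86.6 and 107 CPM in batch 1, 80.9 and 116 CPM in batch 2 and 45.1, 59.9 and 66.1 CPM in the controls. All 5 treated libraries lay above all 3 controls. Ormdl1 had log2 fold changes of 0.74 ± 0.24 in batch 1 (adjusted p = 0.203) and 0.76 ± 0.26 in batch 2 (adjusted p = 0.308). Ormdl2 had log2 fold changes of 0.26 and -0.01, and Ormdl3 was not tested.

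Of the transferase subunits, Sptssa was at 217, 255 and 224 CPM in batch 1, 241 and 229.6 CPM in batch 2 and 173, 180.2 and 187 CPM in the controls. The treated libraries again lay above every control. For Sptssa the log2 fold change was 0.36 ± 0.16 in batch 1 (adjusted p = 0.569) and 0.39 ± 0.18 in batch 2 (adjusted p = 0.638), and it had been 0.39 with carmofur. Sptlc1 was at 57.7, 35.8 and 42.8 CPM in batch 1, 55.2 and 57.4 CPM in batch 2 and 25.8, 34.1 and 30.1 CPM in the controls, also without overlap. On the log2 scale Sptlc1 differed by 0.58 ± 0.32 in batch 1 (adjusted p = 0.692) and by 0.89 ± 0.34 in batch 2 (adjusted p = 0.467). Sptlc2 showed no such separation. It was at 33.2, 39.7 and 32.7 CPM in batch 1, 51.2 and 69.1 CPM in batch 2 and 83.8, 27.8 and 60.3 CPM in the controls, which spread widely and overlapped both batches. Sptlc2 had log2 fold changes of -0.66 ± 0.31 (adjusted p = 0.616) in batch 1 and 0.11 ± 0.34 (adjusted p = 0.997) in batch 2. Sptlc3 had 0 counts in all 8 libraries. Degs1 had a log2 fold change of 1.21 in both batches, with no overlap, at low levels of 6.46 to 10.1 CPM in batch 1, 7.07 to 8.39 CPM in batch 2 and 2.25 to 5.16 CPM in the controls.

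Sgpl1, the lyase that ends the pathway by splitting sphingosine 1-phosphate, was at 24.1, 19.5 and 12 CPM in batch 1, 11.6 and 21.6 CPM in batch 2 and 0, 8.23 and 11.2 CPM in the controls. The treated libraries lay above the controls, the closest by a small margin, and the control at 0 is the shallowest library. The log2 fold change was 1.35 ± 0.61 in batch 1 (adjusted p = 0.578) and 1.19 ± 0.66 in batch 2 (adjusted p = 0.757). Acer1 lay below the controls in both batches, at 4.31, 5.32 and 7.69 CPM in batch 1, 2.98 and 2.5 CPM in batch 2 and 19.3, 12.5 and 13 CPM in the controls. Its log2 fold change was -1.35 ± 0.76 (adjusted p = 0.698) and -2.40 ± 0.92 (adjusted p = 0.458).

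**Figure D4:**
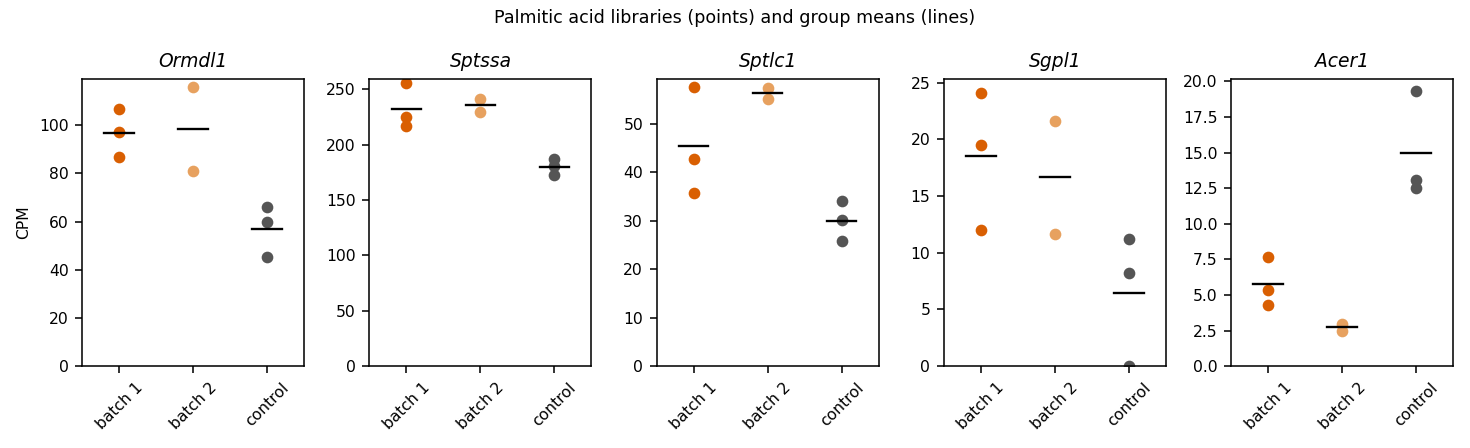
CPM of Ormdl1, Sptssa, Sptlc1, Sgpl1 and Acer1 in palmitic acid batch 1, batch 2 and their shared controls, with 1 point per library and a line at the mean. For the first 4 genes the 5 treated libraries lie above the 3 controls, for Acer1 below them, and none of these differences passed the test over all genes.

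Counted over the tested members, the treated and control libraries did not overlap for 8 of 29 in batch 1, where 13% of all genes tested did not overlap. Those higher were Sptlc1, Sptssa, Degs1, Ormdl1, Smpd2 and Sgpl1, and those lower were Cers3 and Acer1. In batch 2, with 2 treated libraries, it was 11 of 29, where 19.9% of all genes did not overlap: the same 8 genes in the same directions, and Cers6, Asah1 and Sgpp2, all higher.

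The remaining ceramidases gave no call with palmitic acid. Asah1 was at 318, 257 and 234 CPM in batch 1, 263 and 267 CPM in batch 2 and 242, 254 and 256 CPM in the controls, which gave log2 fold changes of 0.10 ± 0.16 (adjusted p = 0.961) and 0.08 ± 0.17 (adjusted p = 0.997). Batch 1 spread on both sides of the controls. Acer2 was at 11.2, 23.1 and 28.4 CPM in batch 1, 22.5 and 21.2 CPM in batch 2 and 19.3, 10.2 and 22.9 CPM in the controls, and Acer3 at 36.6, 34.1 and 27.9, 47.4 and 34.5, and 30.9, 43.5 and 43.6 CPM in the same order of groups. Both overlapped their controls, with log2 fold changes of 0.27 and 0.34 for Acer2 and -0.28 and 0.04 for Acer3. Naaa was at 3.45, 2.48 and 8.17 CPM in batch 1, 4.06 and 2.08 CPM in batch 2 and 0, 9.01 and 7.65 CPM in the controls, with log2 fold changes of -0.35 ± 0.997 and -0.93 ± 1.14. Asah2 had 8 counts in batch 1, 6 in batch 2 and 0 in the controls.

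Cers5 was at 4.74, 9.94 and 13.5 CPM in batch 1, 6.77 and 6.66 CPM in batch 2 and 1.29, 1.18 and 11.7 CPM in the controls. One control lay among the treated libraries, and the log2 fold change was 0.89 ± 0.83 (adjusted p = 0.886) and 0.41 ± 0.92 (adjusted p = 0.997). By log2 fold change Sgms1 was at 0.19 ± 0.45 and 0.31 ± 0.49, and Sgms2 at -0.13 ± 0.70 and -0.53 ± 0.79. The other ceramide synthases had log2 fold changes of 0.39 and 0.45 for Cers2, -0.99 and -0.61 for Cers3, and 0.33 and 0.38 for Cers6. Of the rest, the log2 fold changes in batch 1 ran from -0.52 for Smpd4 to 1.4 for Sphk2, and in batch 2 from -1.18 for Smpd3 to 1.77 for Sphk2, with Smpd2 at 1.21 in batch 2.

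The carmofur effect and the palmitic acid batch 1 effect were compared in a fit of all 35 libraries, where 0 of 38 members differed by edgeR, DESeq2 or limma-voom and 0.691% of 14040 genes did by edgeR, 0.548% higher with carmofur. Only Ormdl1 had an unadjusted p under 0.05. Its log2 fold change was lower with carmofur by a difference of -0.94 ± 0.41 (adjusted p = 0.557). For Cers5 the difference was 0.58 ± 0.999, for Sgms1 0.54 ± 0.51 and for Sptssa 0.03 ± 0.23.

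A further 42 genes of the same pathway, covering acyl chain elongation, lipid transfer, glycosphingolipid synthesis and lysosomal breakdown, were read beside the members, and 25 were tested in each experiment. With carmofur 0 of 25 rose, where 5.2% of all genes did, and 1 fell, where 3.81% did. It was Elovl1, an elongase that supplies very long acyl chains for ceramides. Elovl1 ran from 101 to 184 CPM with carmofur (median 128) and from 106 to 213 CPM in carmofur controls (median 181). Only 1 of 15 treated libraries lay above the control median, and its log2 fold change was -0.43 ± 0.11 (adjusted p = 0.00814), which became 0.202 with counts summed by library set. With carmofur 8 of the 25 had an unadjusted p under 0.05, where 19.0% of all genes did. In palmitic acid batch 1 and in batch 2, 0 of 25 passed by edgeR, where 0.549% and 0.325% of all genes did, with 0 at an unadjusted p under 0.05. The median log2 fold change of the 25 was 0.39 with carmofur, 0.14 in batch 1 and 0.01 in batch 2. In block 2 of the carmofur libraries 3 of 31 passed, where 5.75% of all genes did. Psap, the precursor of the saposins that help lysosomal sphingolipid breakdown, rose (1.05 ± 0.25, adjusted p = 0.00686), as did Gm2a, the GM2 activator (1.47 ± 0.41, adjusted p = 0.0261), and Elovl1 fell (-0.70 ± 0.18, adjusted p = 0.0149). Psap and Gm2a were named after their values were seen.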

How the data were processed

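The authors deposited 1 table of estimated counts per gene, in whole numbers, for 35 libraries, and the submitters' processing notes name Salmon 1.3.0 and mm10. The sources used here do not give the annotation or the transcript-to-gene step. Per the labels' protocols the kit was directional, with poly(A) selection. Genes without a name (1243, with 0.0216% of counts) were removed. Tests were made in R 4.3.3 by edgeR 4.0.16 (TMM scaling, default low-count filter, robust dispersions, quasi-likelihood F test), with p-values adjusted over all genes tested and a threshold of 0.05. The palmitic acid libraries, the carmofur libraries, treatment by block, and all 35 libraries were each 1 fit, with biological coefficients of variation of 0.41, 0.75, 0.94 and 0.97. Scripts were tested on simulated data. CPM are TMM-scaled within each experiment, and counting limits cover counting error only, since reads carry no molecular identifiers. Coordinates and exon lengths are from GENCODE M21 (mm10), upstream sequences from RefSeq (GRCm38.p6).

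The 42 members, the 42 further pathway genes and the marker lists were chosen with earlier results of these data known. Values in full are given for members past the threshold in any comparison, the 4 members with the lowest p in each treatment, the ceramidases and the serine palmitoyltransferase genes. Alternatives were RLE or library-size scaling, DESeq2 1.42.0, limma 3.58.1 voom with quality weights, no filter or a mean count of at least 10, libraries or library sets omitted, a replicate block, blocks as a covariate, sets summed, fits of 2 groups and both batches as 1 group. A library set is 3 libraries of 1 group with consecutive numbers. The 3 libraries least like their groups were also left out.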

Additional observations from a re-analysis of the deposited data

Results flagged for a closer look

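In 4 of 42 groups of 6 libraries examined, a single library lay far from the others of its block. For independent values with a normal spread, chance gives about 1 in 20. The rule was applied to CPM without logarithms and to several genes in the same libraries, so this rate is only a rough guide. Sptlc1 was at 73.3 CPM in carmofur replicate 6, against 40.4 to 48.1 CPM in the other 5 treated libraries of block 1. Sgpl1 was at 40.0 CPM in carmofur replicate 3, against 11.9 to 21.8 CPM in the other treated libraries of that block. In block 3, carmofur control replicate 9 held the highest level of both Cers6, at 99.6 CPM against 26.2 to 50.6 CPM, and Acer2, at 47.0 CPM against 13.3 to 22.5 CPM.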

How the results depend on the processing

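Of 1482 alternative values of single genes, 1413 kept their direction and their side of the threshold, 42 lost a call, 2 gained one and 25 changed sign. With palmitic acid, and for the differences between blocks and between treatments, the count of members called was 0 in all alternatives run. With carmofur the count of 3 became 6 without a filter on low counts, 0 with counts summed by library set (3 at an unadjusted p under 0.05) and 1 to 3 when a library or set was left out. The calls gained without the filter were S1pr1, S1pr3 and Sptlc3, each with counts in only 2 libraries of that experiment. Summed by set, the adjusted p were 0.150 for Cers5, 0.177 for Sptssa, 0.0652 for Sgms1 and 0.202 for Elovl1. Omitted sets ended the calls of Cers5 (sets 1, 3 and 9, adjusted p up to 0.0677), Sptssa (sets 4 and 5, up to 0.0868) and Sgms1 (sets 1, 2, 3, 4, 6 and 9, up to 0.122). Sgms1 also lost its call with blocks as a covariate (0.0725). The cause was not tested. In block 1 the count of 1 became 2 with DESeq2, 0 without a filter and 0 to 1 with a library left out. In block 2 the count of 2 became 1 with limma-voom, 1 without a filter, 1 without the 3 libraries least like their groups, and 1 to 3 with a library left out. In block 3 the count of 0 became 2 with limma-voom and 0 to 2 with a library left out.

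The changes of sign concerned log2 fold changes that passed in no fit. For Naaa with carmofur it was -0.38 by limma-voom, -0.36 without the 3 libraries, -0.11 with blocks as a covariate, -0.21 with summed sets and -0.20 to 0.34 with a library or set left out. With both palmitic acid batches as 1 group it was -0.32 for Sptlc2 and -0.16 for Acer3 in the comparison that stands for batch 2. With a library or set left out it ranged from -0.35 to 0.0093 for Acer2 with carmofur and from -0.33 to 0.38 for Sgms2 in block 3. In batch 1 the range was -0.038 to 0.57 for Acer2, -0.99 to 0.11 for Naaa and -0.037 to 0.19 for Asah1. In batch 2 it was -0.24 to 0.46 for Sptlc2 and -0.20 to 0.26 for Acer3.

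Same-numbered libraries did not deviate together, with median correlations of 0.02 over 12 carmofur pairs, where 1 correlated best with its own number, and -0.011 over 3 pairs of batch 1. For the 2 pairs of batch 2 they were -0.0064 and -0.0029. From carmofur 4 to carmofur 12, the control of the same number lies in another block. Those pairs cannot show whether libraries of the same block deviate together. A paired fit, in which the replicate number is a block, called 0 members in each palmitic acid batch. With carmofur it used the same pairs, and it left out carmofur 13 to 15, which have no control of the same number. It called 2 members there, Cers5 (adjusted p = 0.0413) and Sptssa (0.0229), with Sgms1 at 0.0689.

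Depth limits the low members: of the values of members tested, 11.1% with carmofur and 5.60% with palmitic acid were 3 counts or fewer.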
